A study of Mus musculus with 15 samples.

Results

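The comparison described here sets brain tumours of mice treated with an antibody against PD-1 together with vorinostat (the combination, n = 4) against tumours of mice treated with vorinostat alone (n = 4). It asks what the antibody adds when the drug is already given. These 8 libraries are all those labelled with either treatment, of 15 in the series. The deposited TPM table lists 38172 gene symbols, and 19390 of them, those that reached 1 TPM in 3 or more of the 15 libraries, were compared.

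All mice carried the same low-grade glioma model. Chicken DF-1 cells, one kind expressing IDH with the R132H mutation and the other expressing PDGFB, were mixed in equal parts and injected into the brain of nestin-TVA mice, in which the receptor for the avian virus is driven by the nestin promoter. Tumours were imaged by MRI on day 28 and the mice assigned at random, treatment ran for 9 days, and tissue was collected on day 37. The vorinostat group received 1 mg of vorinostat in 100 µl once a day, and the combination group received the same drug and 1 mg of anti-PD1 antibody in 100 µl per injection, given 2 times a week. The remaining groups were solvent alone (control, n = 3) and the antibody alone (n = 4). The labels name no control antibody for the vorinostat group and give neither the age nor the sex of the mice. Per the labels the tissue is brain and the cells are low-grade glioma cells. Transcripts of glioma cells, immune cells and neurons were all present in the 8 libraries, so each value is that of a piece of tissue, in which fewer cells of a type and less RNA per cell cannot be told apart. Whether each replicate is a separate animal is not in the labels, and p-values therefore measure only the spread between these samples.

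PD-1 is an inhibitory receptor on activated T cells. When its ligand PD-L1, encoded by Cd274, engages it, T cell receptor signalling is damped, and antibodies that block PD-1 are used to release T cells against tumours. Activated T cells and natural killer cells secrete interferon gamma, which acts on neighbouring cells to induce chemokines, guanylate-binding proteins, immunity-related GTPases and the machinery that presents peptides on MHC class I. Vorinostat inhibits zinc-dependent histone deacetylases, which remove acetyl groups from histones and other proteins.

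The 8 libraries were deep, with 83.1 to 113.9 M recovered reads in the combination and 108.9 to 128.4 M with vorinostat. Single libraries nevertheless stood apart in their tissue content. Vorinostat library 4 had the highest erythrocyte, neutrophil and olfactory mucosa means of the 8, and olfactory receptors summed to 584.6 TPM in it against 19.1 to 29.8 TPM in the other 7. Combination library 2 had the lowest cell cycle and glioma lineage means, 2.85 and 5.19 on the log2(TPM + 1) scale, against 4.26 to 5.46 and 5.98 to 7.05 in the other 7. Combination library 4 had a B and plasma cell mean of 1.78, against 2.36 to 4.40 elsewhere. Changes are differences of group means on the log2(TPM + 1) scale, combination minus vorinostat, which understates the change of low genes. They were tested with limma in a fit of all 15 libraries with Benjamini-Hochberg adjustment over the 19390 genes, and a gene is said to have risen or fallen only at an adjusted p under 0.05.

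Only Klk7 and Tmem203 rose in the combination (0.0103% of the genes tested), and none fell (0.0%). Before adjustment 932 genes (4.81%) had a p under 0.05, where 5% of the genes tested would be 970, and 638 of them were higher (3.29%) and 294 lower (1.52%). limma's voom on the recovered reads called Klk7 alone, with 935 genes under 0.05 before adjustment. All genes together had a median change of 0.02, with 5% of genes below -0.40 and 5% above 0.41. Every combination library lay above every vorinostat library for 450 genes (2.32%) and below for 160 (0.825%), and 57.2% of genes had a change above 0. An exact two-sided permutation test of 4 against 4 libraries cannot give a p below 0.0286. These shares are the background for the gene groups described further on.

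**Figure D1:**
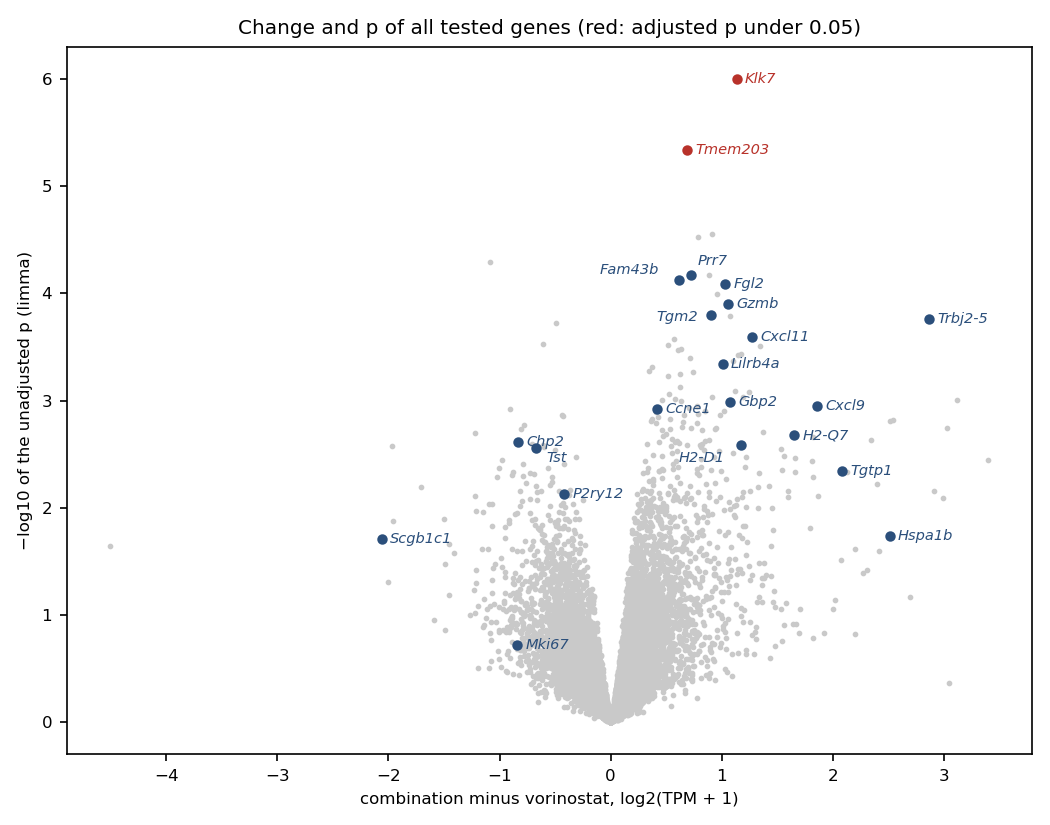
Change of each of the 19390 genes (x, combination minus vorinostat on the log2(TPM + 1) scale) against the −log10 of its unadjusted limma p (y), with Klk7 and Tmem203 in red and other named genes in blue. Klk7, with a change of 1.13, and Tmem203, with 0.69, lie highest, and most of the labelled interferon, MHC and lymphocyte genes lie on the right, below the level that passed.

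Klk7 (ENSMUSG00000030713.6, chr7:43811294-43816359 in mm10, plus strand, protein-coding) encodes kallikrein-related peptidase 7, a secreted serine protease best known from the skin. It was listed at 0, 0, 0 and 0 TPM in vorinostat libraries 1 to 4 and at 1.37, 1.46, 1.36 and 0.6902 TPM in combination libraries 1 to 4. All 4 combination libraries were above all vorinostat libraries, and library 4 was the lowest of the combination. The values rest on 44 to 94 reads per combination library and 0 reads in every vorinostat library. The change was 1.13 (SE 0.13, 95% interval 0.84 to 1.42, adjusted p = 0.0194). Against a floor of 3 reads per vorinostat library the combination mean of 1.22 TPM was at least 27.9-fold higher. Klk7 was at 0, 0 and 0 TPM in the controls and at 0, 0.1596, 0 and 0 TPM with the antibody alone, so that it passed the expression filter only through the combination libraries, and a gene that passes in this way had to differ. Its adjusted p was 0.113, 0.116, 0.0586 and 0.0549 without vorinostat library 1, 2, 3 and 4 in turn, above the threshold each time. Without combination library 1, 2 or 3 it no longer passed the filter, and without library 4 its adjusted p was 0.00129.

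Tmem203 (ENSMUSG00000078201.5, chr2:25255439-25256292 in mm10, plus strand, protein-coding) encodes a small membrane protein of the endoplasmic reticulum. Its level was 37.6, 34.3, 39.2 and 38.3 TPM in vorinostat libraries 1 to 4 and 57.3, 66.6, 55.1 and 64.6 TPM in combination libraries 1 to 4, from 369 to 694 reads. The groups did not overlap, and the spread within each was narrow, with 60.9 ± 5.54 TPM (SD, n = 4) in the combination and 37.4 ± 2.13 TPM (SD, n = 4) with vorinostat. The change was 0.69 (SE 0.09, 95% interval 0.49 to 0.89, adjusted p = 0.0443). The controls had 43.98, 41.3 and 42.9 TPM and the libraries with antibody alone 43.3, 38.1, 44.02 and 34.7 TPM, and antibody minus control came to -0.10. Tmem203 overlaps Ndor1 on the other strand, and since the library kit does not keep the strand its reads cannot be told apart from those of Ndor1 in the shared stretch. The call was lost when any 1 library other than antibody-alone library 3 or 4 was left out, with adjusted p-values of 0.0521 (without combination library 4) to 0.294 (without vorinostat library 2). When only the 8 libraries entered the fit, Klk7 and Tmem203 both had an adjusted p of 0.331.

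The promoters of both genes, from 250 bases before to 50 bases after the annotated start (RefSeq, GRCm38.p6), are shown because these are the genes that rose. They are chr7:43811044-43811343, plus strand, and chr2:25255189-25255488, plus strand. Letters of an interferon-stimulated response element (ISRE, here GAAA, any 2 bases and GAAA) or of a gamma-activated site (GAS, TTCNNNGAA) on either strand would be in capitals, and neither window holds a match.
Klk7: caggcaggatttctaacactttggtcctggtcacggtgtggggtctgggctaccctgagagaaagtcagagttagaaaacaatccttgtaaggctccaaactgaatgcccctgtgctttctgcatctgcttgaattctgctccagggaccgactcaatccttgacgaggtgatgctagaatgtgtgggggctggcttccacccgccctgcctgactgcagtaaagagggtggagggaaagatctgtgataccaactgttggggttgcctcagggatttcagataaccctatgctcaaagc
Tmem203: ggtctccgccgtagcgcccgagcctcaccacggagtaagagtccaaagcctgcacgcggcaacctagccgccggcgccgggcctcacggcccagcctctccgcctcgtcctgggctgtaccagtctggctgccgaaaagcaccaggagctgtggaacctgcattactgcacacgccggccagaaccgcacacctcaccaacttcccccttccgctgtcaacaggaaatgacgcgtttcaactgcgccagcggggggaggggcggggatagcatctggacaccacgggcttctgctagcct

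The next genes by p did not pass, and their values are given as such. Fgl2, a fibrinogen-like protein with a secreted form that acts on immune cells, had 12.7, 11.4, 9.37 and 13.7 TPM with vorinostat and 20.5, 28.7, 24.1 and 27.2 TPM in the combination, with a change of 1.03 (SE 0.19, adjusted p = 0.177). Tgm2, tissue transglutaminase, had 6.05, 5.14, 5.08 and 7.02 TPM and 9.22, 15.7, 9.55 and 13.3 TPM in the same order, and a change of 0.90 (SE 0.17, adjusted p = 0.238). Lilrb4a, an inhibitory receptor of myeloid cells, had 5.996, 7.701, 8.46 and 4.94 TPM and 12.4, 17.7, 15.1 and 12.95 TPM, a change of 1.01 (SE 0.22, adjusted p = 0.326). In each of these 3 genes every combination library lay above every vorinostat library. Prr7, a membrane protein of synapses and T cells, stood at 3.12 to 4.28 TPM with vorinostat and 5.77 to 8.32 TPM in the combination. Fam43b stood at 23.6 to 32.02 and 38.5 to 41.4 TPM, Ccdc85b at 27.9 to 38.4 and 42.4 to 73.1 TPM, the histone gene H2aj at 56.04 to 63.4 and 86.7 to 99.5 TPM, and the mitochondrial ribosomal protein gene Mrpl38 at 28.9 to 33.7 and 38.5 to 46.6 TPM. Their changes were 0.73, 0.61, 0.71, 0.61 and 0.52, with adjusted p-values from 0.177 to 0.311 and no overlap between the groups in any of the 5. Trbj2-5, a joining segment of the T cell receptor beta locus, had a change of 2.87 (SE 0.56, adjusted p = 0.238), but it rests on 0 to 1 read per vorinostat library and 1 to 8 reads per combination library. It passed, as the only gene called, when combination library 1 was left out. Fgl2 overlaps Ccdc146, Ccdc85b overlaps Fosl1, Fam43b overlaps AB041806 and Tgm2 overlaps Rprd1b, so the levels of these 4 are uncertain to that extent.

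On the lower side no gene passed, and the 10 named genes of smallest p had changes from -0.24 to -2.06 with adjusted p-values from 0.521 upward. Chp2, a calcium-binding protein that regulates sodium-proton exchange, had 7.27, 12.6, 12.6 and 8.22 TPM with vorinostat and 6.096, 5.56, 4.396 and 4.58 TPM in the combination, a change of -0.83 (SE 0.22, adjusted p = 0.521) with no overlap. P2ry12, the purinergic receptor that marks resting microglia, had 12.1, 12.7, 11.1 and 12.7 TPM and 10.3, 9.44, 9.297 and 6.62 TPM, a change of -0.42 (SE 0.13, adjusted p = 0.722), again with no overlap. P2ry12 overlaps Med12l on the other strand. Slitrk1, Emx2, Cyb5a and Sec14l2 also did not overlap, with changes of -0.36, -0.32, -0.24 and -0.48. Tst, a mitochondrial sulfurtransferase, Higd1b and the matrix proteoglycan Lum had changes of -0.67, -0.53 and -0.91 with overlapping groups. Scgb1c1, a secretoglobin of the nasal lining, had 1.53, 2.66, 1.196 and 47.8 TPM with vorinostat and 0.0603, 0.402, 0.7597 and 0.2599 TPM in the combination. Its change was -2.06, and -1.02 without vorinostat library 4, the library with the highest olfactory content.

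**Figure D2:**
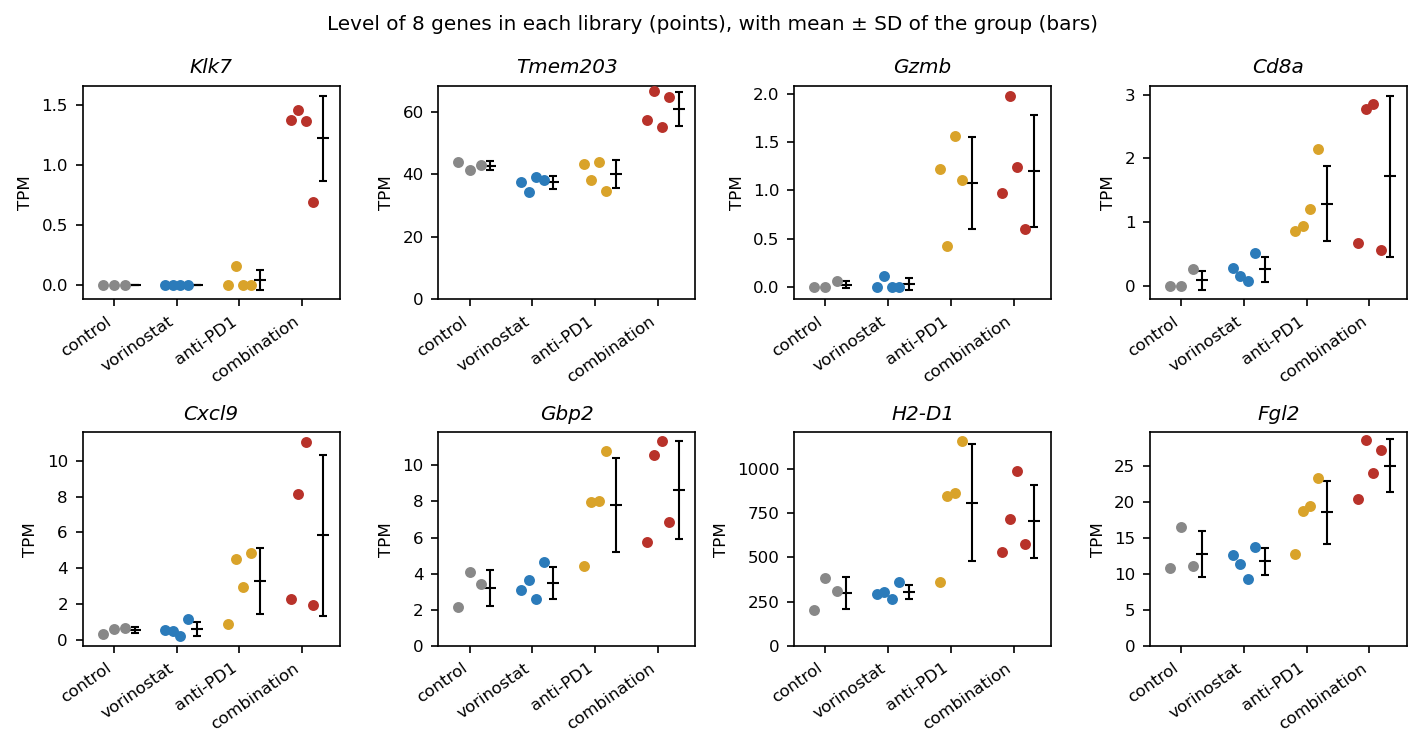
Level in TPM (y) of 8 genes in each library of the control, vorinostat, anti-PD1 and combination groups (points), with the mean ± SD of each group beside it (bars). Klk7 was at 0.690 TPM or more in the combination and at 0.160 TPM or less elsewhere, Tmem203 at 55.1 TPM or more and 44.0 TPM or less, and Gzmb, Cd8a, Cxcl9, Gbp2 and H2-D1 also have high points with the antibody alone.

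Genes of antigen presentation on MHC class I stood higher in the combination. All 19 listed genes were tested, none passed, all 19 had a change above 0, and 10 of them had every combination library above every vorinostat library (2.32% of all genes). Their median change was 0.56, against 0.02 over all genes tested, and lay between 0.53 and 0.71 under every alternative run. The list mean was 4.57 to 5.18 in the combination libraries and 3.90 to 4.30 in the vorinostat libraries, without overlap. H2-D1, a classical class I heavy chain, had 291, 304, 261 and 361 TPM with vorinostat and 532, 716, 987 and 577 TPM in the combination. Its change was 1.17 (SE 0.32, adjusted p = 0.521), and the highest level was in combination library 3. H2-K1, a further classical heavy chain, had 52.1, 60.01, 50.5 and 84.2 TPM and 102, 134, 215 and 109 TPM, a change of 1.13 (SE 0.37, adjusted p = 0.726). The non-classical H2-Q7 had 1.94, 2.702, 1.73 and 3.65 TPM and 6.81, 8.52, 20.3 and 7.501 TPM, a change of 1.65 (SE 0.43, adjusted p = 0.516). In all 3 genes combination library 3 was the highest of the 8 and the groups did not overlap. H2-Q6 and H2-Q7 are near-identical copies whose reads may be shared between them, and the change of H2-Q6 was 1.34.

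The light chain B2m stood at 209.9 to 254 TPM with vorinostat and 347 to 466 TPM in the combination, a change of 0.68 (SE 0.26, adjusted p = 0.882). Psmb9, a subunit of the immunoproteasome that cuts peptides for class I, had 2.15 to 4.87 and 6.77 to 12.9 TPM, a change of 1.18 (SE 0.38, adjusted p = 0.726). The other members without overlap were H2-Q4, the peptide transporter subunit Tap1, the immunoproteasome subunit Psmb8 and the class I transactivator Nlrc5. Nlrc5 stood at 0.135 to 0.283 TPM with vorinostat and 0.427 to 1.54 TPM in the combination. No vorinostat library carried it over the expression filter, which bears on its lack of overlap. B2m overlaps Patl2 and Psmb9 overlaps Tap1.

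Of 11 listed genes of MHC class II presentation, which display peptides to CD4 T cells, 10 were tested and none passed. All 10 had a change above 0, and 3 of them (H2-DMa, H2-Oa and Ctss) had every combination library higher, against 2.32% of all genes. The median was 0.58, or 1.17 over members with a mean of at least 5 TPM. H2-Ab1, a chain of the class II molecule, had 7.36, 12.5, 4.81 and 6.61 TPM with vorinostat and 34.6, 26.7, 32.3 and 6.001 TPM in the combination. Combination libraries 1 to 3 were at least 26.7 TPM, and library 4 lay within the vorinostat range, so the groups overlapped despite a change of 1.38 (SE 0.58, adjusted p = 0.99). H2-DMa, a peptide exchange factor for class II, stood at 4.24 to 4.64 TPM with vorinostat and 5.68 to 7.52 TPM in the combination without overlap. H2-DMb1 and H2-Oa, which act in the same step, had changes of 0.58 and 0.94.

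Interferon response genes had a median change of 0.39, and 29 of 30 tested members (31 listed) had a change above 0. None passed, and 9 had no overlap with the combination higher, against 2.32% of all genes. The list mean was 3.01 to 3.86 in the combination and 2.60 to 3.14 with vorinostat, and vorinostat library 4 lay above combination library 1. The members with the largest changes were GTPases that act on intracellular pathogens. Tgtp1 had 1.32, 1.599, 0.591 and 2.4 TPM with vorinostat and 4.66, 14.4, 24.6 and 3.69 TPM in the combination, a change of 2.08 (SE 0.61, adjusted p = 0.617). Igtp had 5.77, 6.04, 2.896 and 9.83 TPM and 11.4, 20.7, 37.3 and 15.5 TPM, a change of 1.60 (SE 0.50, adjusted p = 0.716). Iigp1 had 2.14, 2.04, 0.797 and 3.29 TPM and 4.97, 9.87, 14.4 and 4.61 TPM, a change of 1.56 (SE 0.44, adjusted p = 0.563). Combination libraries 2 and 3 were the 2 highest of the 8 for all 3 genes, and libraries 1 and 4 lay nearer to the vorinostat range. The guanylate-binding protein Gbp2 had 3.096, 3.65, 2.57 and 4.67 TPM and 5.77, 10.6, 11.3 and 6.87 TPM, a change of 1.08 (SE 0.26, adjusted p = 0.467). Gbp4, Gbp5, Gbp7 and Irf1, the last a transcription factor of the interferon response, were among the other members without overlap. Igtp overlaps Irgm2 on the same strand and Tgtp1 overlaps Olfr56. Ifng, which encodes interferon gamma itself, was below the expression filter, with 0 to 10 reads in the combination libraries and 0 to 4 in the vorinostat libraries, so a difference in it was not detectable at this depth.

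Chemokines, which attract leukocytes, had a median change of 0.44 over 19 tested members (20 listed), 17 of them above 0. Every combination library was higher for 4 of them, against 2.32% of all genes. None passed. Their list mean was 3.24 to 3.66 in the combination and 2.94 to 3.10 with vorinostat, without overlap. Cxcl9, which interferon gamma induces, encodes a ligand of CXCR3, a chemokine receptor on T cells. It had 0.555, 0.484, 0.238 and 1.15 TPM with vorinostat and 2.28, 8.12, 11.04 and 1.94 TPM in the combination, a change of 1.86 (SE 0.45, adjusted p = 0.48). Cxcl11, a further CXCR3 ligand whose gene the annotation calls a polymorphic pseudogene, had 0.121, 0.254, 0.281 and 0.373 TPM and 0.894, 2.75, 4.13 and 1.31 TPM, a change of 1.27 (SE 0.26, adjusted p = 0.296). For both, combination libraries 2 and 3 were the highest of the 8 and the groups did not overlap. Of the 7 libraries without antibody none reached 1 TPM for Cxcl11 and 1 did for Cxcl9, so both passed the expression filter only through libraries with antibody, which bears on their difference as it does for Klk7. Ccl5, made by activated T cells and natural killer cells, had 1.99, 1.39, 1.54 and 2.08 TPM and 4.11, 5.79, 4.13 and 3.805 TPM, a change of 0.98 (SE 0.24, adjusted p = 0.48). Cxcl16 stood at 3.44 to 5.65 and 7.22 to 10.3 TPM with a change of 0.78. Cxcl11 overlaps Art3 and Cxcl16 overlaps Zmynd15, each on the other strand. The chemokine median was 0.19 without combination library 4, the lowest of the values with 1 library left out, and 0.12 over members with a mean of at least 5 TPM.

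The promoters of Gbp2, Tgtp1 and Gzmb are printed because, unlike those of Cxcl9, H2-D1, H2-Q7 and Cd274, which hold no match, they hold the searched interferon letters. The window of Fgl2, also searched, holds 1 GAS match and is not printed. The choice was made on the matches, so shares over each group are given below. A share over a list of interferon response genes describes that list and is not a result of the comparison. Capitals mark the match. The Gbp2 window (chr3:142620413-142620712, plus strand) holds 1 ISRE match on the opposite strand, the Tgtp1 window (chr11:48992197-48992496, minus strand) holds 1 GAS match followed by 1 ISRE match, and the Gzmb window (chr14:56262285-56262584, minus strand) holds 1 GAS match.
Gbp2: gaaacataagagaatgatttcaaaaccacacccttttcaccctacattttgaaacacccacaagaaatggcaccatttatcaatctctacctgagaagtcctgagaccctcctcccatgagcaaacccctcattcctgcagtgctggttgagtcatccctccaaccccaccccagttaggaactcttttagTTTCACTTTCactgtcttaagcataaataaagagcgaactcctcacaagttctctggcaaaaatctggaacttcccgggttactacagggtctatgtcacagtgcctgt
Tgtp1: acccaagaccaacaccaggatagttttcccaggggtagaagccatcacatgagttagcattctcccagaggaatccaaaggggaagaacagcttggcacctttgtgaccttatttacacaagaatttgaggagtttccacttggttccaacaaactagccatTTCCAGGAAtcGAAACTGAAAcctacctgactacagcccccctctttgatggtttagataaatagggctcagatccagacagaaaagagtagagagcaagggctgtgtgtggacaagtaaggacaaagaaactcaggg
Gzmb: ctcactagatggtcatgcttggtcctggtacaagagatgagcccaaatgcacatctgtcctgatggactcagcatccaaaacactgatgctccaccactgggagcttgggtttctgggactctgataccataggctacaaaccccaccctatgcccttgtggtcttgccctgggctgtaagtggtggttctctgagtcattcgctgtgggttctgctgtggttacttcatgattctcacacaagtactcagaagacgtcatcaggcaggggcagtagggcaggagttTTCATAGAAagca
Of the 10900 tested genes with a promoter in the RefSeq table, 3.67% held the ISRE letters and 8.28% the GAS letters. Among the interferon response genes with a promoter 15 of 23 held the ISRE letters (65.2%) and 9 of 23 the GAS letters (39.1%), among MHC class I genes 5 of 17 and 2 of 17, and among chemokines 3 of 13 (23.1%) and 1 of 13 (7.69%). Of the 450 genes with every combination library higher, 273 had a promoter, and 26 of these held ISRE letters (9.52%) and 37 held GAS letters (13.6%). Of the 160 with every combination library lower, 34 had a promoter, with 0 ISRE matches and 1 GAS match. A match describes the letters of the window only. Matches of the motifs can overlap each other. Cxcl11 had no entry, and the window of Iigp1 is not reported here.

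Most T cell transcripts were at low levels in these libraries. Of 20 listed T cell genes 8 were tested, and Cd3e, Cd3d, Cd3g, Cd247 and Cd8b1 were among the 12 below the filter. The deposited values are per gene span, introns included, which lowers the TPM of genes with long introns. The 8 tested genes, some of which, Cd8a included, passed the filter only through libraries with antibody, had a median change of 0.38, 7 of them above 0 and none passing. The member below 0 was Thy1, at -0.02, a surface protein of T cells that neurons also carry, and it alone averaged at least 5 TPM. Cd8a, the coreceptor of cytotoxic T cells, had 0.275, 0.152, 0.0727 and 0.515 TPM with vorinostat and 0.668, 2.77, 2.86 and 0.567 TPM in the combination. These levels correspond to 6 to 40 and 41 to 212 reads, with libraries 2 and 3 well above 1 and 4, and libraries 1 and 4 close to vorinostat library 4. The change of Cd8a was 1.00 (SE 0.29, adjusted p = 0.617). Trbc2, a constant region of the T cell receptor beta chain, had 1.63 to 4.69 TPM and 4.09 to 8.43 TPM with a change of 0.70 (SE 0.28, adjusted p = 0.954). Trac and Trbc1 had changes of 0.49 and 0.55.

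Among cytotoxic lymphocyte genes 5 of 15 were tested, 4 had a change above 0 and the median was 0.98. For 3 of them (Gzmb, Nkg7 and Ccl5) every combination library was higher, against 2.32% of all genes. Gzmb, the protease granzyme B that cytotoxic cells release into their targets, had 0, 0.116, 0 and 0 TPM with vorinostat and 0.9701, 1.98, 1.24 and 0.604 TPM in the combination. These are 0 to 5 reads against 26 to 69 reads, with every combination library higher and library 2 the highest. The change of Gzmb was 1.06 (SE 0.20, 95% interval 0.63 to 1.49, adjusted p = 0.22), and it passed the filter only through libraries with antibody, alone or in the combination. Nkg7, a granule membrane protein of natural killer and cytotoxic T cells, had 1.22, 0.8104, 0 and 1.26 TPM and 3.57, 7.52, 3.29 and 1.82 TPM, a change of 1.43 (SE 0.44, adjusted p = 0.702). Ctsw, a protease of the same cells, had a change of 0.30 with overlap, and it overlaps Fibp. The list mean was 1.32 to 2.12 in the combination and 0.74 to 1.10 with vorinostat, without overlap. Prf1, Gzma and Gzmk were among the 10 members below the filter.

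Neither the gene of the antibody's target nor that of its ligand passed. Pdcd1, which encodes PD-1, had 1.29, 0.825, 1.56 and 0.934 TPM with vorinostat and 1.02, 0.4004, 0.875 and 1.5 TPM in the combination, a change of -0.16 (SE 0.19, adjusted p = 1) with overlapping groups. Cd274 had 1.55, 1.702, 0.854 and 2.12 TPM and 2.35, 3.27, 3.74 and 2.599 TPM, a change of 0.66 (SE 0.25, adjusted p = 0.877) with every combination library higher. The 8 tested of 15 checkpoint genes had a median of 0.10 and none passed, and Havcr2, which encodes TIM-3, had a change of 0.18.

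B and plasma cell genes had a median change of 0.80 over 11 tested of 15, with 10 above 0, none without overlap and none passing. The list mean was 3.94, 4.40 and 3.25 in combination libraries 1 to 3, 1.78 in library 4 and 2.36 to 2.56 with vorinostat. Ighg2c, an immunoglobulin heavy chain constant region, had 0, 0.3304, 0.174 and 0.677 TPM with vorinostat and 3.05, 14.1, 4.98 and 0.264 TPM in the combination, a change of 1.87 (SE 0.60, adjusted p = 0.726). Ighg2b had 1.01, 0.816, 0.547 and 1.28 TPM and 3.88, 16.2, 4.91 and 0.192 TPM, a change of 1.38 (SE 0.62, adjusted p = 1). Combination libraries 1 to 3 lay above every vorinostat library for both genes, and library 4 lay within or below the vorinostat range. The list median was 0.45 without combination library 2 and 1.504 without library 4.

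**Figure D3:**
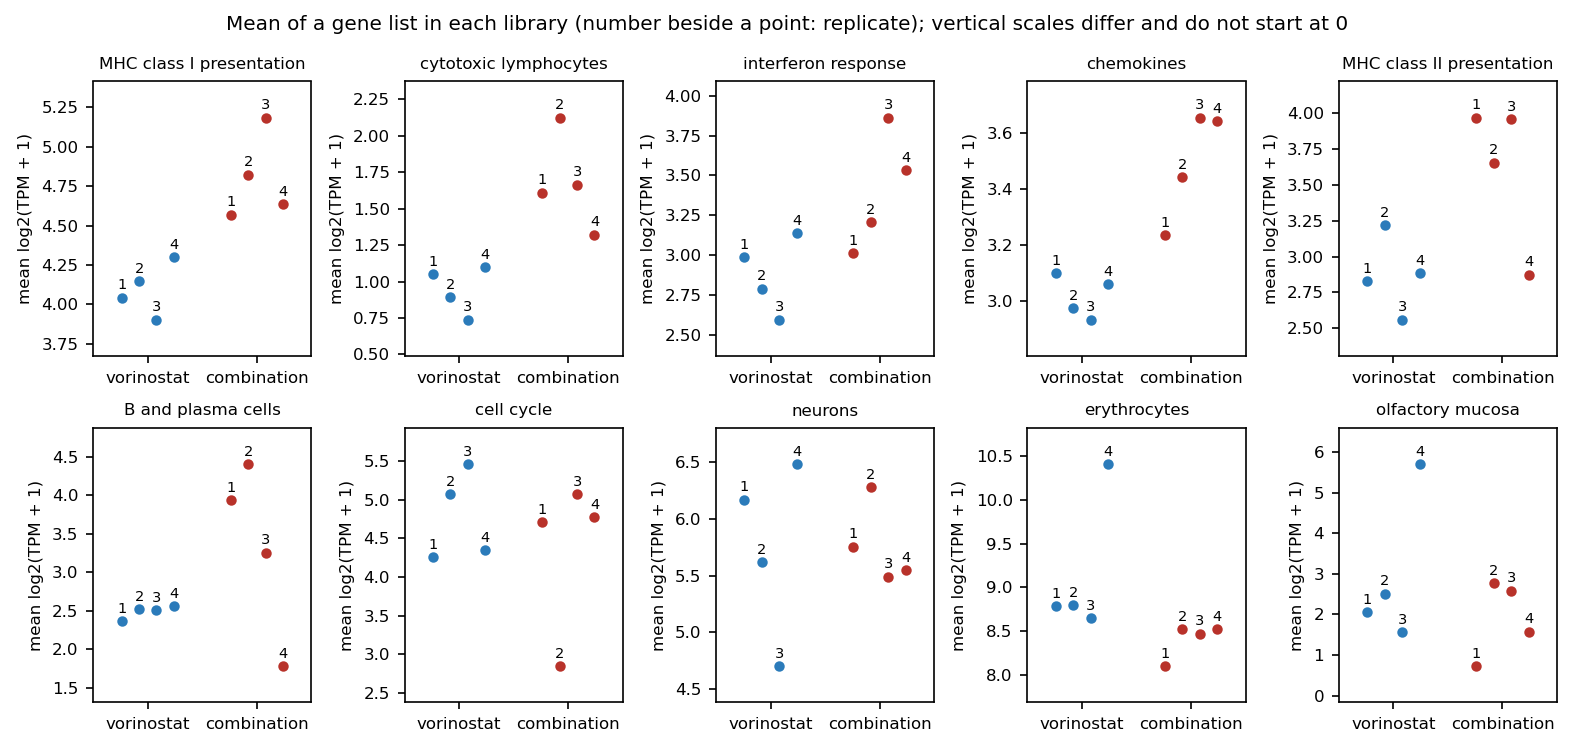
Mean log2(TPM + 1) of the tested members of 10 gene lists in each vorinostat and combination library (points, with the replicate number), on vertical scales that differ and do not start at 0. The MHC class I, cytotoxic lymphocyte and chemokine means do not overlap between groups, while combination library 4 is low for MHC class II and B and plasma cells, combination library 2 for the cell cycle, and vorinostat library 4 is high for erythrocytes and olfactory mucosa.

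Myeloid gene groups had medians nearer to 0. The mean of 13 tested homeostatic microglia genes was 4.16 to 4.19 in the combination and 4.26 to 4.27 with vorinostat, lower without overlap, and the median change was only -0.06, which lay between -0.11 and -0.03 under the alternatives. None passed, and P2ry12 was the member without overlap. P2ry13, a related receptor gene that also overlaps Med12l, had a change of -0.27. The 16 genes of activated microglia and macrophages had a median of 0.16, none without overlap, and named members were the receptor tyrosine kinase Axl, at 0.36, and the lipid receptor Trem2, at -0.30. Genes of infiltrating monocytes and macrophages had a median of 0.00 over 11 tested of 16, with 5 above 0, and its sign turned under several alternatives. Lyz2, Cd163, S100a4, Vcan and Ms4a7 had changes of -0.34, -0.36, -0.30, -0.23 and -0.21. Ly6c2, a surface marker of inflammatory monocytes, had 1.13, 0.896, 0.694 and 2.35 TPM with vorinostat and 2.98, 5.52, 3.17 and 3.69 TPM in the combination, a change of 1.12 (SE 0.26, adjusted p = 0.459) with no overlap. Arg1, arginase of alternatively activated macrophages, had 2.33, 1.996, 1.36 and 1.01 TPM and 6.82, 17.96, 7.096 and 1.15 TPM, with combination library 4 inside the vorinostat range and a change of 1.44 (SE 0.56, adjusted p = 0.926).

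Receptors for the Fc part of IgG, through which antibodies engage myeloid cells, had means of 3.02 to 3.30 in the combination and 2.79 to 2.98 with vorinostat, without overlap. None of the 6 passed, 5 had a change above 0 and the median was 0.21. Fcgr4, an activating receptor for IgG2 antibodies, had 0.888, 0.601, 0.643 and 1.25 TPM and 1.27, 2.35, 2.31 and 3.16 TPM, a change of 0.81 (SE 0.22, adjusted p = 0.521) with no overlap, and Fcgr1 had a change of 0.22. Fcgr4 passed the expression filter only through libraries with antibody, which bears on its lack of overlap and on that of the list mean. The 5 tested of 12 dendritic cell genes had a median of 0.25 and a list mean that did not overlap (3.46 to 3.54 against 3.11 to 3.39), with Clec10a at 0.25 and Bst2 at 0.65. Flt3, Xcr1, Clec9a, Batf3 and Ccr7 were below the filter, Bst2 is also on the interferon list and Siglech, at -0.03, on the microglia list, so this mean is not one of dendritic cells alone. Clec10a, whose change was the list median, passed the expression filter only through libraries with antibody, which bears on this median and mean. The 15 complement genes had a median of 0.15. Cfb, a protease of the alternative pathway, and the receptor gene C3ar1 were higher without overlap (2.32% of all genes), at 0.75 and 0.32. The 8 tested neutrophil genes had a median of 0.00 with 4 above 0, Retnlg at 1.03 and Mmp9 at 0.63 but Camp at -0.65 and Ngp at -0.59. This median ran from -0.31 without combination library 4 to 0.55 without vorinostat library 4. Among the 5 tested erythrocyte genes the median was -0.94 and 3 globin genes were lower without overlap (0.825% of all genes). Hbb-bs had 1089, 1104, 857 and 4288 TPM with vorinostat and 592, 842, 768 and 739 TPM in the combination, and its change was -0.99 (SE 0.93, adjusted p = 1). Without vorinostat library 4 it was -0.47 and the median of the list -0.42. Globin genes are near-identical copies, and Hbb-bt had a change of -0.94.

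**Figure D4:**
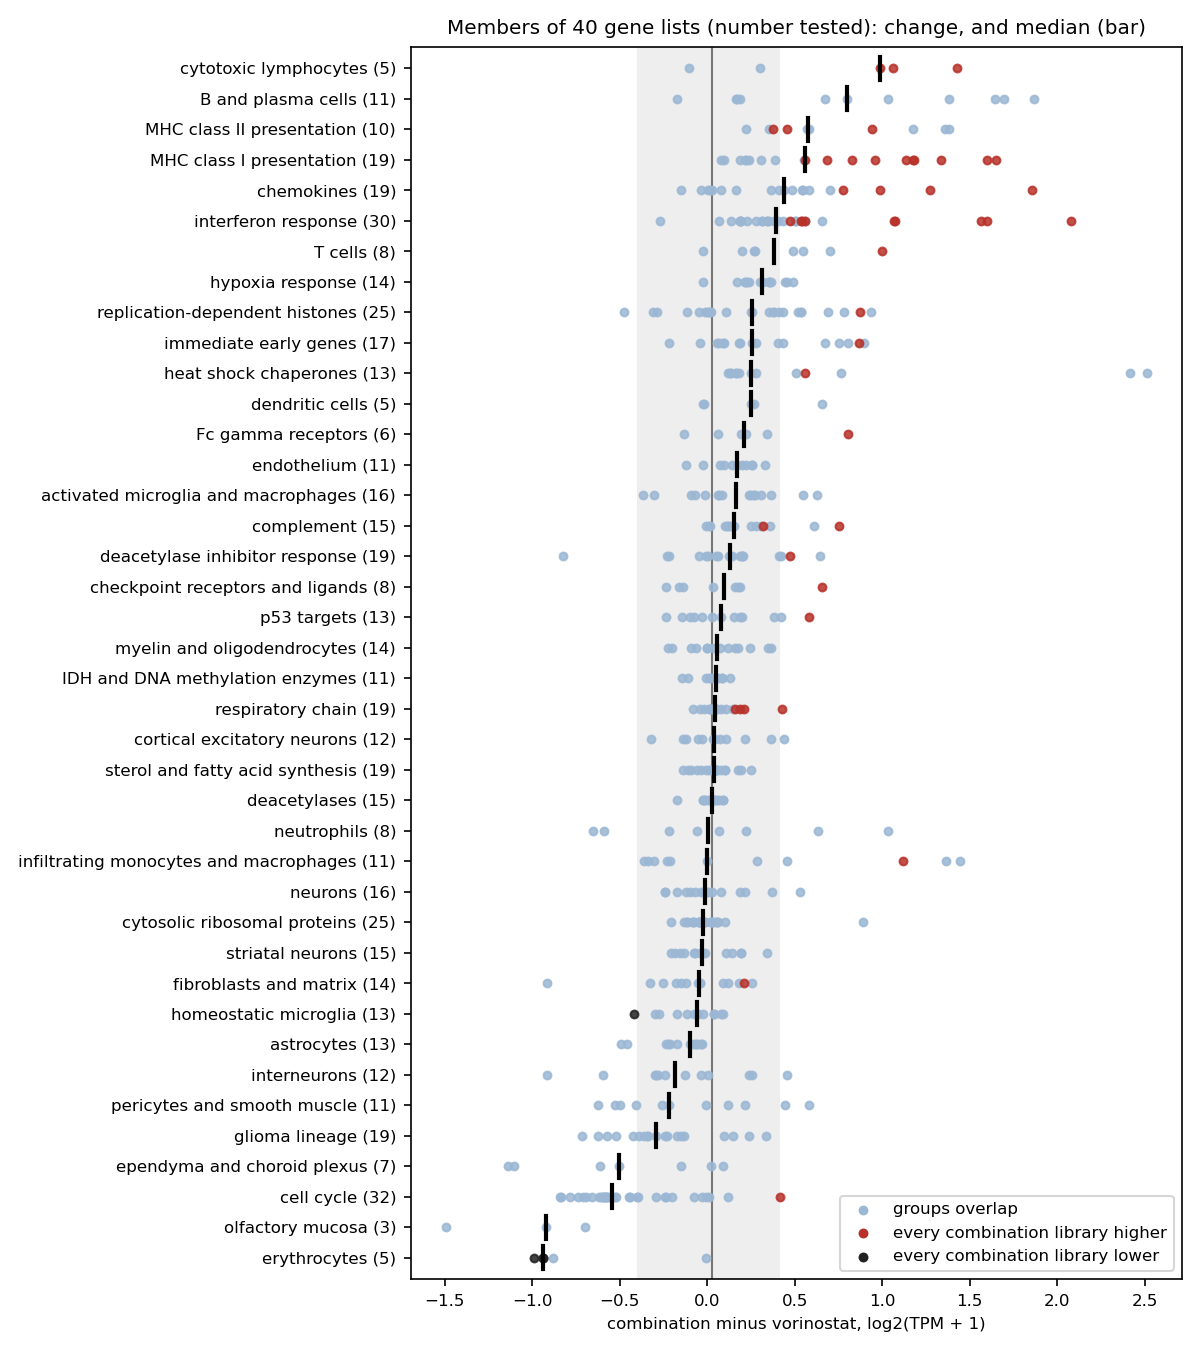
Change of each tested member (points; x, combination minus vorinostat on the log2(TPM + 1) scale) of 40 gene lists (y), with the list median as a bar, the central 90% of all tested genes shaded and their median as a line. Members with every combination library higher (red) number 10 in the MHC class I list, 9 in the interferon list and 4 each in the chemokine and respiratory chain lists, and those with every combination library lower (black) in the erythrocyte and microglia lists. Over all genes tested the shares were 2.32% higher and 0.825% lower.

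Genes of the drug's own targets were close to 0. The 15 tested of 17 listed deacetylases had a median change of 0.03, with a lowest of -0.17 and a highest of 0.09, and no member without overlap. Hdac1 had 12.7, 18.1, 24.95 and 13.5 TPM with vorinostat and 15.01, 11.8, 21.8 and 23.6 TPM in the combination, a change of 0.06 with a 95% interval of -0.54 to 0.66. Hdac2, Hdac3 and the complex member Mta1 had changes of 0.04, 0.06 and 0.09, all with adjusted p = 1. The sign of the list median and of Hdac2 turned under median-of-ratios scaling, and those of Hdac1 and Mta1 when single libraries were left out. A list of 19 genes that deacetylase inhibitors are known to induce or repress had a median of 0.13, with 14 above 0. Ccnd1, Myc and Tyms, members that are often repressed, had changes of -0.82, -0.22 and -0.23. H1f0, a linker histone, was at 698 to 1169 TPM with vorinostat and 689.7 to 1082 TPM in the combination, a change of 0.00 whose sign also turned under median-of-ratios scaling. Cdkn1a, which encodes the cell cycle inhibitor p21, had 39.2, 78.5, 90.8 and 65.7 TPM and 109, 40.1, 103 and 134 TPM, a change of 0.42 (SE 0.50, adjusted p = 1). Klf2 did not overlap, at 7.57 to 10.2 and 10.7 to 15.7 TPM, and Cited2 had a change of 0.65. Of 25 tested replication-dependent histone genes none passed, the median was 0.26, and H2ac4 and H4c4 had changes of 0.87 and 0.69. H2ac4 rests on 4 to 10 reads per vorinostat library and 8 to 21 per combination library, and H4c4 on 17 to 29 and 18 to 57.

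Cell cycle and glioma lineage genes had changes below 0 that rested on combination library 2. Of 32 cell cycle genes 29 had a change at or below 0 and the median was -0.54, but it was 0.01 without combination library 2. Mki67, a marker of cycling cells, had 42.4, 101, 122 and 51.1 TPM with vorinostat and 62.1, 8.19, 90.1 and 51.3 TPM in the combination, a change of -0.84 (SE 0.61, adjusted p = 1). Bub1b, a mitotic checkpoint kinase, had a change of -0.70. Ccne1, the cyclin of entry into S phase, had a change above 0, at 8.54, 7.38, 9.46 and 9.35 TPM and 12.4, 9.98, 11.7 and 13.7 TPM, or 0.42 (SE 0.10, adjusted p = 0.48) with no overlap. The 19 glioma lineage genes had a median of -0.30, and 0.10 without combination library 2. Olig2, a transcription factor of the oligodendrocyte lineage, had 594, 1037, 1756 and 602 TPM and 787, 238, 965 and 851 TPM, a change of -0.52 (SE 0.50, adjusted p = 1). Pdgfra, the receptor for PDGF, had 196, 369, 621 and 209 TPM and 289, 52.6, 337 and 368 TPM, a change of -0.57 (SE 0.62, adjusted p = 1). Pdgfb had a change of 0.34. Idh1 had 29.95 to 45.7 TPM with vorinostat and 28.6 to 40.7 TPM in the combination, a change of -0.11, and the IDH and DNA methylation enzymes as a list had a median of 0.05, with Idh3a at 0.08 and Tet1 at -0.14. Genes of the p53 response had a median of 0.08, with the proapoptotic Pmaip1 at 0.58 without overlap and Mdm2 at 0.20.

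Genes of other cell types were mostly centred near 0, and none of them passed. Neurons had a median of -0.01, with 7 of 16 above 0 and a lowest of -0.24 (Nrgn at 0.53, Nefm at 0.37). Striatal neurons had -0.03, with 5 of 15 above 0 and a lowest of -0.21 (Ppp1r1b at 0.34, Rgs9 at 0.19). Cortical excitatory neurons had 0.04, with 7 of 12 above 0 (Rorb at 0.36, Nrn1 at 0.44), and interneurons -0.18, with 4 of 12 above 0 (Calb2 at -0.92, Dlx1 at -0.60). Myelin genes had a median of 0.05 (Cldn11 at 0.35, Enpp2 at 0.37), and the sign of these 5 medians turned when single libraries were left out, that of cortical excitatory neurons also under median-of-ratios scaling. All 13 astrocyte genes had a change below 0 with a median of -0.10, and Aqp4 and Gfap had -0.49 and -0.46. Endothelial genes had a median of 0.17 (Pecam1 at 0.26, Esam at 0.22), pericytes and smooth muscle -0.22 (Rgs5 at -0.50), fibroblasts and matrix -0.05 (Fbln1 at 0.21), and ependyma and choroid plexus -0.50 (Otx2 at -1.10, Rarres2 at -0.62). Otx2 stood at 0.125 to 5.64 TPM with vorinostat and 0.0689 to 0.676 TPM in the combination. Without the vorinostat libraries it would not have passed the expression filter, which bears on its difference. The ependyma median was -0.073 without vorinostat library 4 and the pericyte median -0.035 without combination library 2. The 3 tested olfactory mucosa genes had a median of -0.92, with Omp and Cyp2a5 at -1.49 and -0.92, and were highest in vorinostat library 4. Without that library the median was -0.017, with Omp at -0.41 and Cyp2a5 at -0.017.

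Stress and housekeeping genes completed the lists. All 13 heat shock chaperone genes had a change above 0, with a median of 0.25. Hspa1b had 61.7, 12.8, 64.2 and 43.8 TPM with vorinostat and 40.7, 162, 375 and 1048 TPM in the combination, a change of 2.51 (SE 0.94, adjusted p = 0.876), with library 1 inside the vorinostat range. Dnajb1, a co-chaperone, had 114 to 131 and 138 to 258 TPM without overlap, a change of 0.56. Immediate early genes had a median of 0.25 that was -0.09 without combination library 4, with Junb at 0.86 and Dusp1 at 0.40. Hypoxia response genes had a median of 0.31, 13 of 14 above 0, with the glucose transporter Slc2a1 at 0.46 and Hk2 at 0.44. Respiratory chain genes had a median of 0.04 with 4 of 19 members higher without overlap (2.32% of all genes), among them Cox5a, Uqcrfs1 and Atp5b. Cox5a, a subunit of cytochrome c oxidase, had 43.02, 40.01, 34.2 and 46.6 TPM and 52.6, 64.5, 52.9 and 50.8 TPM, a change of 0.42 (SE 0.11, adjusted p = 0.485), and Atp5b had a change of 0.21. Sterol and fatty acid synthesis had a median of 0.04 (Acly at 0.17) and cytosolic ribosomal proteins -0.02 (Rpl13 at 0.89, Rps18 at -0.21). The signs of these last 3 medians turned under median-of-ratios scaling or when single libraries were left out.

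The antibody contrast can also be read without the drug, from 4 antibody-alone and 3 control libraries that share no library with the 8 above. For the class I and interferon genes the contrasts lay side by side. H2-D1 had a change of 1.17 with the drug and 1.37 without it, H2-K1 1.13 and 1.37, Gbp2 1.08 and 1.04, Iigp1 1.56 and 1.57, and Gzmb 1.06 and 1.00. Cxcl9 had 1.86 and 1.34, and Cxcl11 had 1.27 and 0.55. The difference between the contrasts was tested as an interaction, and it did not pass for any of these genes. The list medians with and without the drug were 0.56 and 0.73 for MHC class I, 0.39 and 0.28 for the interferon response and -0.54 and -1.43 for the cell cycle. The cell cycle median with the drug was 0.01 when combination library 2 was left out. Over all genes tested the medians were 0.02 with the drug and -0.14 without it. Striatal neuron genes had -0.03 with the drug and 2.11 without it, and Ppp1r1b, a phosphatase inhibitor of striatal neurons, had 0.34 and 2.59 with an interaction that did not pass (adjusted p = 0.26). The antibody-alone and control libraries also differed in the general neuron mean, 5.97 to 7.05 against 5.32 to 5.83. Their cell cycle means were 2.85 to 4.20 and 4.89 to 5.24. Whether the tissue content of the libraries accounts for these contrasts was not tested. For Klk7 the interaction was 1.08 (SE 0.20, adjusted p = 0.138) and for Tmem203 0.79 (SE 0.14, adjusted p = 0.128), so neither passed as different between the contrasts. Without a filter on low values the interaction of Klk7 passed.

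Over all 19390 genes the 2 contrasts had a Pearson r of 0.265 and a Spearman rho of 0.228, given as a description across genes of the same libraries, which are not independent replicates. This relation rested on single libraries, since r was -0.040 without vorinostat library 3 and -0.060 without combination library 2. The interaction passed for 2 genes (0.0103%), both positive, while 3182 genes had an unadjusted p under 0.05 (16.4%). The median interaction over all genes tested was 0.18, above 0. Gm38061, a gene model without a name, was at 5.60, 5.45 and 5.71 TPM in the controls and at 0 to 0.233 TPM in every treated library, including 0 TPM in every combination library and 0 to 0.203 TPM with vorinostat. It passed the expression filter only through the 3 controls, and a gene that passes in this way had to differ. Its interaction was 2.58, and without any 1 of the 3 controls it no longer passed the filter. The noncoding RNA 2700046G09Rik had 6.80, 5.75, 7.34 and 6.18 TPM with vorinostat and 8.89, 8.62, 7.41 and 7.72 TPM in the combination. Its interaction was 1.14 (SE 0.15, adjusted p = 0.0348), with a change of 0.29 with the drug and -0.86 without it. This call was lost under median-of-ratios scaling, with voom on the recovered reads, and when any 1 library other than vorinostat library 3 or antibody-alone library 2 was left out.

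**Figure D5:**
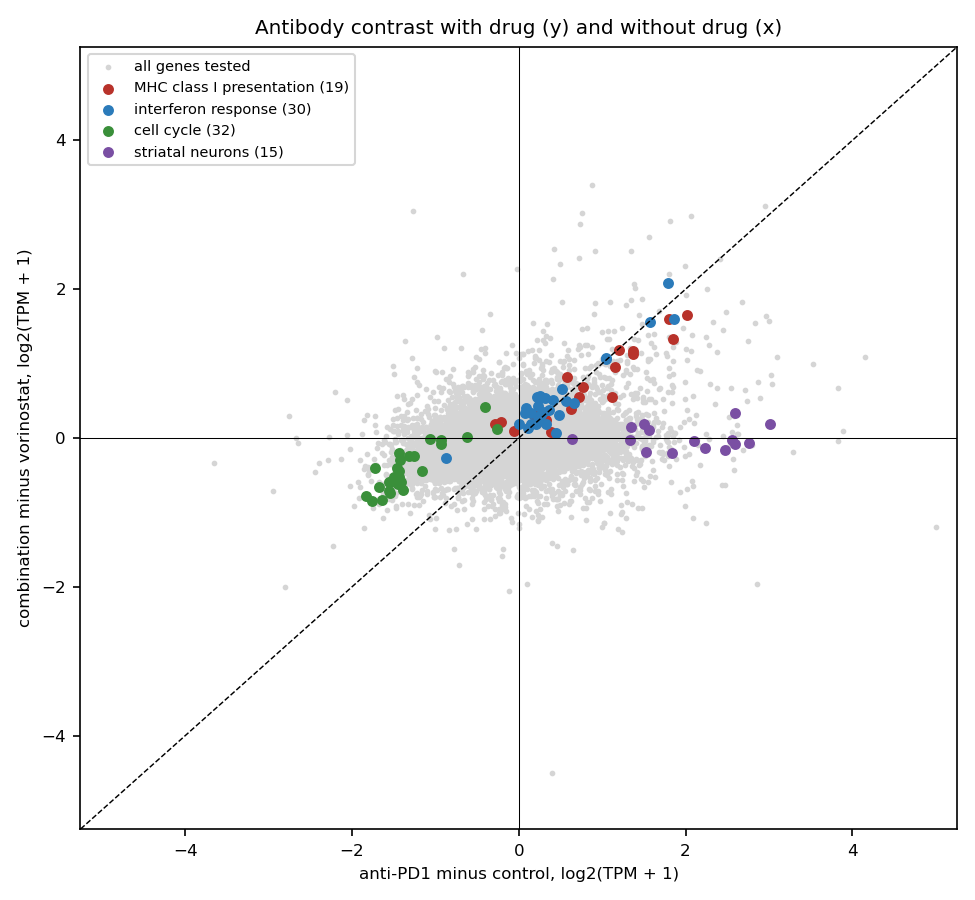
Change of each gene with the antibody in the presence of vorinostat (y, combination minus vorinostat) against the change without the drug (x, anti-PD1 minus control), both on the log2(TPM + 1) scale, with 4 gene lists in colour and the line of equal change dashed. MHC class I and interferon genes lie near that line, cell cycle genes lie low on both axes, and striatal neuron genes lie to the right at a change near 0 with the drug.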

How the data were processed

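Total RNA from 15 samples was sequenced, with a library kit that does not keep the strand, per the labels' protocols. The submitters ran FastQC, HISAT2, StringTie and DESeq2 on build mm10, per the submitters' processing notes, without versions. The authors deposited 1 table of TPM, read numbers scaled for gene length and library total, for 38172 symbols and 15 libraries, whose name holds "adj", a word the sources used here do not explain. TPM sums were 996108 to 997722, and no X, Y or mitochondrial genes are listed. For 37657 symbols (98.7%) the values were whole reads times a factor of the library divided by the gene span, within 0.001 reads; 515 symbols were not recovered. Recovered reads were 83.1 to 165 M per library, and floors of 3 reads cover counting error only. Coordinates come from GENCODE vM21, where 36477 symbols (95.6%) were found.

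Groups follow the labels. limma 3.58.1 in R 4.3.3 (lmFit, contrasts.fit, eBayes with trend) was run on log2(TPM + 1) with 1 mean per group, and checked on simulated data. DESeq2 and edgeR were not used here. Genes named were, per direction, the 10 of largest change that passed, did not overlap and averaged 5 TPM or more, filled up by smallest p, then every gene that passed, 2 to 4 members of smallest p per list, and 16 genes by name. In the ranking by change and p, gene models without a name, pseudogenes, small RNAs and single immunoglobulin segments were passed over (2 higher, 28 lower); lists could hold them. Of the genes named, Klk7, Gzmb, Cd8a, Cxcl9, Cxcl11, Clec10a, Fbln1, Fcgr4, Ighg2c, Retnlg and Trbj2-5 passed the filter only through libraries with antibody. Nlrc5, named as a list member, reached 1 TPM in no vorinostat library. Otx2 reached 1 TPM in no combination library and would not have passed the filter without the vorinostat libraries. Further list members named for not overlapping, Trac, Trbc1, the genes of the interaction and those called under alternatives were chosen after their values were seen. The 40 lists (546 distinct genes tested) and the comparison were chosen with earlier results of these data known. Alternatives were the pseudocount, the filter, median-of-ratios scaling, a replicate block, a neuron covariate, the 8 libraries alone and each library left out. Voom on recovered reads, and leaving out vorinostat library 4 with combination library 2, were added after seeing the data. Some genes that the rule names are not reported here.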

Additional observations from a re-analysis of the deposited data

Results flagged for a closer look

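Of 312 sets of 4 libraries of 1 group examined (named genes and list means), 26 had a library far from the other 3 by Dixon's test at the 95% level. Chance gives about 1 in 20 such sets and sets share libraries and genes.

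Combination library 2 stood alone in 6 of them. It was low for Olig2 (238.2 TPM against 787 to 964.6 in the other 3) and Pdgfra (52.6 against 289.1 to 368.4), and for the cell cycle mean (2.85) and the glioma lineage mean (5.19). It was high for Cox5a (64.5 TPM against 50.8 to 52.9) and the respiratory chain mean (7.21).

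Vorinostat library 4 was high for Hbb-bs (4288 TPM against 856.5 to 1104), Hbb-bt (1490.1 TPM), Scgb1c1 (47.8 TPM against 1.20 to 2.66), Sec14l2 (21.2 TPM), Fam43b (32.0 TPM) and Trbj2-5 (1.51 TPM against 0), and for the erythrocyte mean (10.4) and the neutrophil mean (3.65). Vorinostat library 3 was low for Calb2 (0.726 TPM against 8.15 to 10.0), Dlx1 (5.30 TPM), Enpp2 (11.3 TPM), the astrocyte mean (6.42) and the myelin mean (3.6). Vorinostat library 2 was the library with Gzmb, at 0.116 TPM against 0.

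Combination library 1 was low for Fcgr1 (5.28 TPM), Trbj2-5 (1.51 TPM against 12.6 to 14.1) and the erythrocyte mean (8.10), and high for P2ry13 (62.1 TPM). Combination library 4 was low for H2-Ab1 (6.0 TPM against 26.7 to 34.6) and for Klk7 (0.690 TPM against 1.36 to 1.46).

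The antibody contrast with the drug differed from that without it, by the limma interaction, for 2700046G09Rik (1.14, adjusted p = 0.0348) and Gm38061 (2.58, adjusted p = 1.3e-05). For 2700046G09Rik the 4 combination libraries were above the 4 vorinostat libraries, and the 4 antibody-alone libraries were below the 3 controls. Gm38061 was near 0 TPM in all 12 treated libraries and at 5.45 to 5.71 TPM in the 3 controls, through which alone it passed the expression filter.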

How the results depend on the processing

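The number of genes that rose, 2 as reported, was 0 with a pseudocount of 0.1, 0 with a mean of at least 5 TPM, 0 with a replicate block, 0 with the 8 libraries alone in the fit, 0 without vorinostat library 4 and combination library 2, 1 with voom on recovered reads and 6 with the neuron mean as covariate. The number that fell, 0 as reported, was 1 without a filter on low values and 2 with the neuron covariate. The interaction count, 2 as reported, was 0 with the pseudocount of 0.1, 0 with a mean of at least 5 TPM, 0 with the filter set on the 8 libraries, 1 under median-of-ratios scaling, 1 with the replicate block, 1 with the neuron covariate, 1 with voom, 1 without the pair of libraries and 9 without a filter. With 1 library left out these counts ranged from 0 to 9, from 0 to 1 and from 0 to 5, and the Pearson r between the contrasts from -0.060 to 0.43. The 9 were reached without combination library 4 and the 5 without vorinostat library 3. For most of these changes the cause was not tested. Klk7 has a mean under 5 TPM and could not enter that setting, and the interaction needs all groups and has no value with the 8 libraries alone.

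Replicate numbers were not used as pairs, and the labels do not say what they mean. Over all genes tested, deviations of same-numbered libraries correlated at 0.07, -0.16, 0.44 and -0.16, and only number 3 matched its own number best. A pairing of small effect need not show in such correlations. With the replicate block 0 genes rose and 1257 had an unadjusted p under 0.05.

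Among named genes the sign of H1f0 turned under median-of-ratios scaling (-0.043) and voom (-0.0029), and that of Hdac2 under median-of-ratios scaling (-0.0060). With 1 library left out H1f0 ranged from -0.13 to 0.14, Hdac1 from -0.083 to 0.24, Hdac2 from -0.060 to 0.19, Mta1 from -0.031 to 0.22, Nefm from -0.12 to 0.65, Pdgfra from -0.85 to 0.083 and Rps18 from -0.37 to 0.0031. Without combination library 2 Mki67 was at -0.12, Olig2 at -0.056 and Bub1b at -0.17, and without vorinostat library 4 Otx2 was at -0.68, Rgs5 at -0.26 and Sec14l2 at -0.29. Of the list medians, those of the neutrophil, infiltrating monocyte, checkpoint, deacetylase inhibitor response, immediate early, p53 and IDH lists also turned sign when 1 library was left out. Medians that kept their sign but moved by over 1.5 times were activated microglia (0.044 without vorinostat library 4), astrocytes (-0.37 without vorinostat library 3 and -0.032 without library 4), complement (0.055 without vorinostat library 1), hypoxia (0.20 without vorinostat library 1), heat shock (0.13 without combination library 3), endothelium (0.10 without vorinostat library 2) and histones (0.14 without combination library 4). Of 999 list medians under alternatives, 983 moved by less than the spread between replicates. This count does not measure stability. Leaving out a control or antibody-alone library, or fitting the 8 libraries alone, cannot move the change of a gene. Leaving out 1 of 4 libraries moves a group mean by less than that spread in any case. Cd8a, Gzmb and Ifng rest on few reads per library, which limits them at this depth.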

Other observations

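Immunoglobulin variable segments, which are rearranged in B cells, summed to 845.1, 807.7 and 409.6 TPM in combination libraries 1 to 3 and to 15.5 TPM in library 4. In vorinostat libraries 1 to 4 they summed to 63.6, 124, 122.6 and 136.9 TPM, so 3 combination libraries lay above the vorinostat range and 1 below it. Of 173 segments listed 99 were tested and none passed, with a median change of 0.74 and 3 segments without overlap, all higher in the combination (2.32% of all genes). Without combination library 4, the segments Ighv1-67, Ighv1-72, Ighv4-1, Igkv14-100 and Igkv6-25 passed. Joining and diversity segments summed to 526.6, 521.2, 193.9 and 18.6 TPM in the combination and 66.7 to 110.9 TPM with vorinostat. T cell receptor segments summed to 92.6, 104.9, 103.3 and 72.2 TPM in the combination and 57.6 to 74.7 TPM with vorinostat, and 35 of 149 were tested with a median change of 0.11.

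Among protein-coding genes, the 341 with every combination library higher had a median gene span of 11462 bases, and the 31 with every combination library lower had one of 6986, against 21690 over all 12710 tested. Of these genes 10.6%, 25.8% and 7.88% had at most 2 exons. The deposited values are per gene span.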
